A study of Mus musculus with 20 samples.

Results

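The iron genes described here are the ferritin subunits Fth1 and Ftl1, the iron exporter Slc40a1, the transferrin receptor Tfrc, the divalent metal transporter Slc11a2, transferrin (Trf) and the iron regulatory proteins Aco1 and Ireb2. They were chosen by symbol, as 8 of the 45700 gene rows of an expression table from mouse brain, and all 8 were among the 15247 genes that were tested because they averaged 1 or more FPKM, a fragment count scaled to transcript length and sequencing depth. The study asked how transcripts and their loading on polysomes change in spinal muscular atrophy (SMA). Total cytoplasmic RNA, pooled from all sucrose gradient fractions, and polysomal RNA, pooled from the polysomal fractions alone, were sequenced from brains of SMA mice (Smn-/-; SMN2tg/0, the "Taiwanese" model of severe disease) and of phenotypically normal littermate controls (Smn-/+; SMN2tg/0). The strain was FVB, to which the alleles were congenic, and controls and SMA mice alike carried the human SMN2 transgene and at least one null Smn allele, so the controls were not wild type. For each genotype and fraction there were 2 libraries at postnatal day 5, the early-symptomatic stage, and 3 at postnatal day 7, the late-symptomatic stage, 20 libraries in 8 groups. The labels number the replicates without saying that each came from its own animal, so the tests measure the spread between these libraries, which may be technical.

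Iron import, storage and export are adjusted in most cells through the iron-responsive element, an RNA hairpin with a bulged C and a CAGUGN loop that the iron regulatory proteins bind when iron is scarce. An element in the 5′ untranslated region, as in the ferritin and Slc40a1 mRNAs, lets the bound protein block ribosome recruitment, whereas elements in the 3′ untranslated region of Tfrc protect the mRNA from decay. In the brain, ferritin is held mostly in microglia and oligodendrocytes, transferrin is made by oligodendrocytes and the choroid plexus, and iron crosses the endothelium of the blood-brain barrier.

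The elements were located in the annotated transcripts (GENCODE M21, GRCm38), because they separate the mRNAs whose polysome association is compared below. In each line the capitals mark the bulged C and the loop, and the lower-case bases around them form the stem and its flanks, written 5′ to 3′ in transcript sense.
Fth1, 5′ untranslated region, chr19:9982731-9982760, + strand: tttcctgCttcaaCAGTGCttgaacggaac
Ftl1, 5′ untranslated region, chr7:45459779-45459808, - strand: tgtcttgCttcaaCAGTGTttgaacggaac
Slc40a1, 5′ untranslated region, chr1:45925465-45925494, - strand: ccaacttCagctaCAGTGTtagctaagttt
Tfrc, 3′ untranslated region, chr16:32631218-32631247, + strand: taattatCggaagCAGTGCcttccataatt
Tfrc, 3′ untranslated region, chr16:32631597-32631626, + strand: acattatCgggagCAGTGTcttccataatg
Tfrc, 3′ untranslated region, chr16:32631662-32631691, + strand: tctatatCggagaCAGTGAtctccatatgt
Tfrc, 3′ untranslated region, chr16:32631709-32631738, + strand: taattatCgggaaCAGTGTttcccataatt
Slc11a2, 3′ untranslated region, chr15:100395153-100395182, - strand: gagccatCagagcCAGTGTgtttctatggt
The search asked, in transcript sense, for a C, any 5 bases and CAGTGN, with at least 4 of 5 pairs between the 5 bases before the loop and the 5 after it, G-T pairs included. All 5 pairs were present in each of the lines above except that of Slc11a2, which had 4. The same pattern was found in 0.698% of the 5′ and 4.98% of the 3′ untranslated regions of the tested protein-coding genes. These shares count only the longest protein-coding transcript of each gene, whereas the members were searched in all their protein-coding transcripts, a wider set. The pattern was not found in Trf, Aco1 or Ireb2, which says only that these letters are not in their annotated untranslated regions.

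The members covered a wide range of levels, which FPKM allows to be compared between genes because it is scaled to length. In the 10 total RNA libraries the median was 556.2 FPKM for Ftl1 (range 440.8 to 648) and 501.3 for Fth1 (range 291 to 550), and these ranges overlapped. The next group held Ireb2 with a median of 29.7 FPKM (range 27.4 to 36.1), Tfrc with 27.8 (range 21.8 to 38.7) and Slc11a2 with 20.7 (range 17.4 to 34.2), again with overlapping ranges. Aco1 followed with a median of 14.6 FPKM (range 12.1 to 20.6) and Trf with 10.8 (range 6.93 to 17.1). Slc40a1 was the lowest in every group, with group means from 2.14 to 7.26 FPKM. Other rows with ferritin-like names (Fthl17, Ftl2 and Fth-ps2) reached at most 0.95 FPKM, and how reads shared between the ferritin genes and their processed pseudogenes were assigned is not known from the table. A small RNA gene (Gm22133) and an unannotated transcript on the other strand (Gm10252) overlap Ftl1, Gm5475 overlaps Slc11a2 on the other strand and Gm20425 overlaps Trf on its own strand, so reads of these loci may be shared as well.

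**Figure D1:**
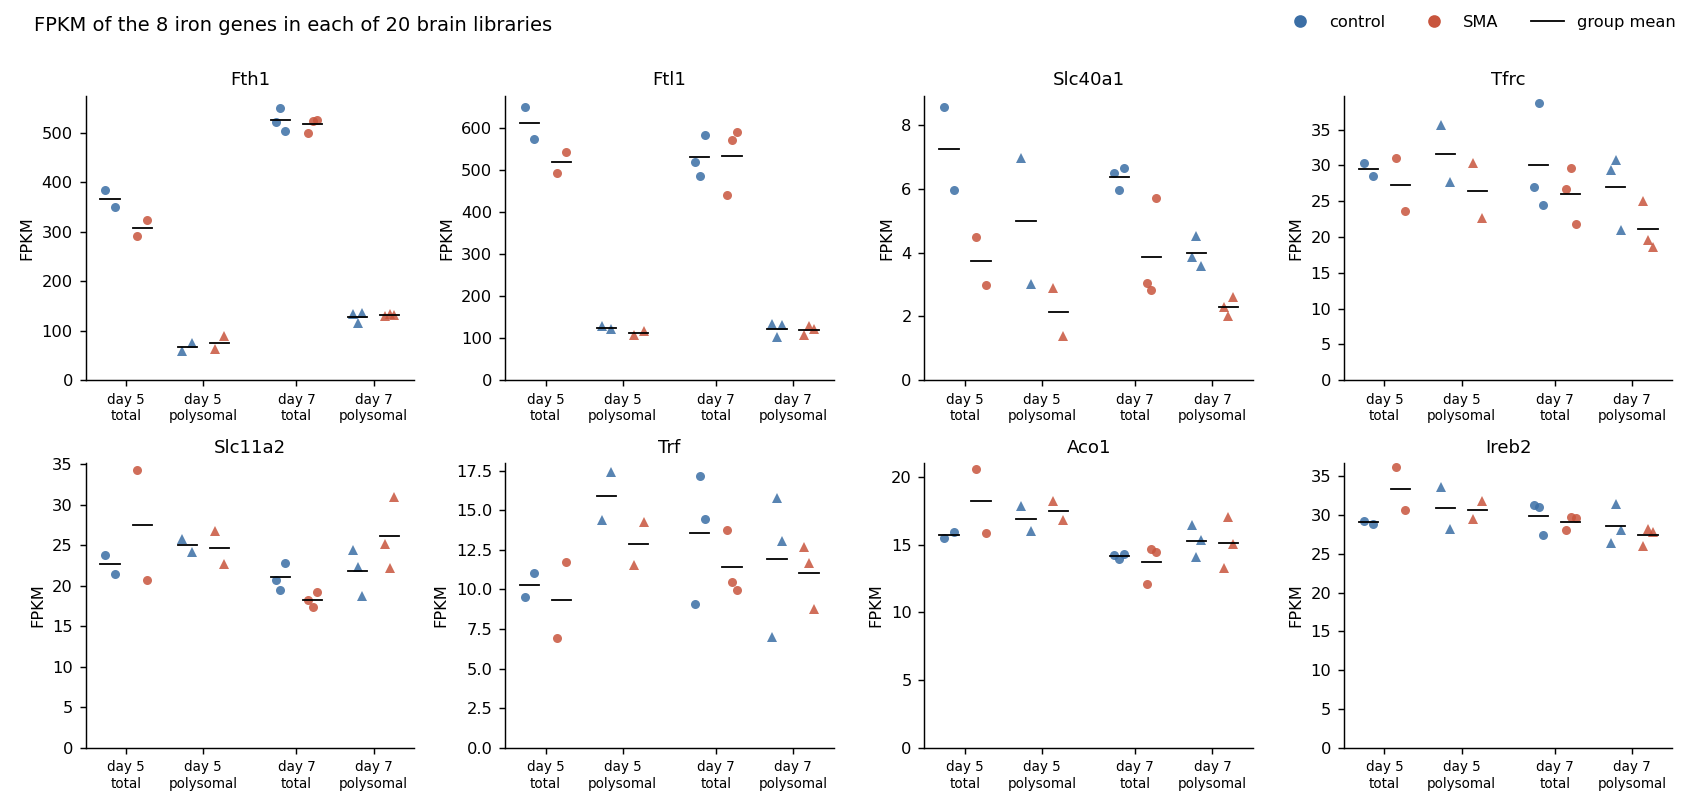
FPKM of each iron gene (one panel per gene, vertical axis from 0) in the 20 libraries, grouped by postnatal day and RNA fraction; circles are total and triangles polysomal RNA, blue is control, red is SMA and the black line is the group mean. The ferritin genes lie far lower in polysomal than in total RNA, whereas Tfrc, Aco1 and Ireb2 lie at similar levels in both.

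The label check gave no separation on Smn1 itself. Smn1 was listed between 8.61 and 11 FPKM in the 4 early-symptomatic control libraries and between 9.34 and 10.1 FPKM in the 4 SMA libraries, and at the late stage between 11.9 and 16.7 FPKM in the 6 control and 11.9 and 17.5 FPKM in the 6 SMA libraries. A value for the whole gene includes exons that the null allele keeps and may include reads of the human transgene, so it does not test the genotypes. The libraries had the marker genes of brain, led by Stmn2 in neurons and Aldoc in astrocytes. In both early-symptomatic control polysomal libraries a neuronal marker, Tubb3, was listed at 0, beside 986 and 859 FPKM in the SMA libraries of that group. None of the 8 members was listed at 0 in any library.

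The first question was how far each mRNA was associated with polysomes. The ferritin mRNAs were strongly under-represented in polysomal RNA. Fth1 stood at 384 and 350 FPKM in early-symptomatic control total RNA and at 59.5 and 74.1 FPKM in the matching polysomal RNA. In early-symptomatic SMA brains Fth1 was at 291 and 323 FPKM in total and 62.2 and 88.9 FPKM in polysomal RNA. In late-symptomatic controls it was at 522, 550 and 502 FPKM against 133, 116 and 135 FPKM. In late-symptomatic SMA brains it was at 500.1, 523 and 527 FPKM against 130.5, 134 and 132 FPKM. Every polysomal value was thus below every total RNA value, across all stages and genotypes.

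Ftl1 behaved in the same way and at nearly the same ratio. It was at 648 and 573 FPKM in early-symptomatic control total RNA and at 128 and 120.5 FPKM in polysomal RNA. In early-symptomatic SMA brains the values were 493 and 543 FPKM in total and 106 and 117 FPKM in polysomal RNA. In late-symptomatic controls Ftl1 was at 518, 485 and 583 FPKM against 132, 102 and 132 FPKM. In late-symptomatic SMA brains it was at 441, 569 and 590.5 FPKM against 108, 129.5 and 122 FPKM. The lowest total RNA value was more than 3 times the highest polysomal value.

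Averaged over stages and genotypes, polysomal minus total RNA was -2.13 (SE 0.064) for Fth1 and -2.19 (SE 0.072) for Ftl1 on the scale of log2(FPKM + 0.1), a 4.37-fold lower geometric mean of Fth1 on polysomes. Both passed limma's moderated test over all tested genes (adjusted p = 1.50e-12 and 3.77e-12, Benjamini-Hochberg). Of all 15247 genes ranked from the lowest difference, Ftl1 was at place 160 and Fth1 at place 173. Slc40a1, the third member with a 5′ element, fell by 0.70 (SE 0.181, adjusted p = 0.0057), and its place was 1110. These 3 of 8 members were called lower, and none was called higher, beside 19.5% of all tested genes called lower and 25.8% called higher in this comparison, which as a whole called 45.3%.

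The remaining members did not pass the test. The difference between polysomal and total RNA was -0.10 for Tfrc (95% confidence interval -0.34 to 0.14), 0.14 for Slc11a2 (-0.05 to 0.34), 0.22 for Trf (-0.13 to 0.57), 0.08 for Aco1 (-0.05 to 0.21) and -0.05 for Ireb2 (-0.15 to 0.06). The median over all tested genes was 0.03. The intervals of the iron regulatory proteins were the narrowest of these 5, and both included that median. The Slc11a2 average joined unlike values, 0.14 in controls and -0.11 in SMA brains on day 5, and 0.05 and 0.50 on day 7. Its 95% interval excluded 0 in day 7 SMA brains alone (0.15 to 0.84, adjusted p = 0.065, limma). With the replicate number as a block Trf was called higher as well (0.22, adjusted p = 0.013, limma), but this average joins opposite signs. The Trf difference was 0.62 in controls and 0.50 in SMA brains on day 5, and -0.21 and -0.05 on day 7, and the 95% interval included 0 in each of these conditions. Whether that number pairs total with polysomal libraries is not given by the labels, and the deviations of same-numbered libraries correlated between -0.039 and 0.109 over all tested genes and between 0.122 and 0.539 over 9779 protein-coding genes of at least 5 FPKM.

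**Figure D2:**
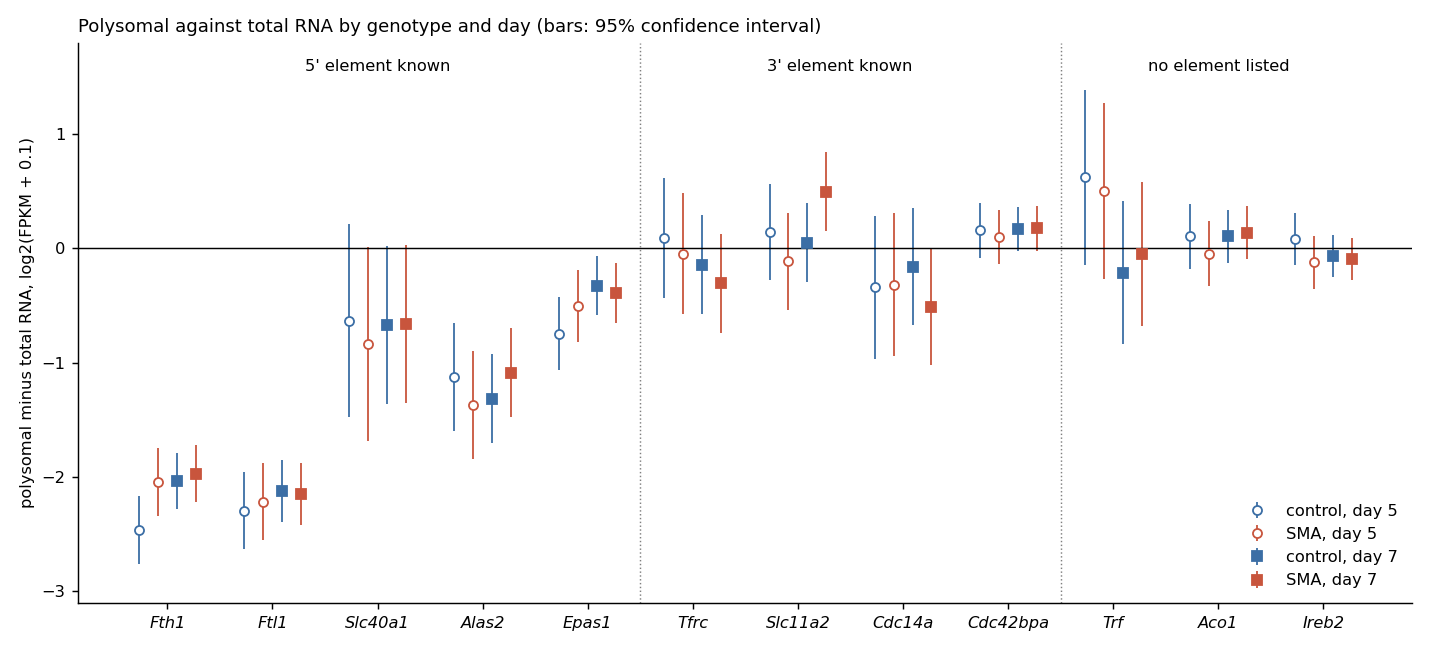
Difference between polysomal and total RNA in log2(FPKM + 0.1) (vertical axis) for the 8 members and 4 other mRNAs with a known element (horizontal axis), separately for controls (blue) and SMA mice (red) at day 5 (open circles) and day 7 (filled squares), with 95% confidence intervals. Fth1 and Ftl1 lie near -2 in all 4 conditions and Tfrc near 0.

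The low polysome association of the ferritin mRNAs was present in each stage and genotype taken alone. Total RNA exceeded polysomal RNA 5.51-fold for Fth1 in early-symptomatic controls, 4.12-fold in early-symptomatic SMA brains, 4.10-fold in late-symptomatic controls and 3.91-fold in late-symptomatic SMA brains. The corresponding folds for Ftl1 were 4.90, 4.64, 4.35 and 4.43. For Slc40a1 the log2 differences were -0.63, -0.83, -0.67 and -0.66 in the same order, and the 95% interval included 0 in each condition by itself. In early-symptomatic controls its polysomal values of 6.96 and 3.00 FPKM overlapped the total RNA values of 8.56 and 5.96 FPKM. With the control libraries alone the Slc40a1 difference was -0.65 and no longer passed (adjusted p = 0.072), whereas Fth1 and Ftl1 still did. Taken by the same replicate number, the log2 ratio of polysomal to total Slc40a1 was negative in all 10 pairs of libraries, from -1.11 to -0.295, and with that number as a block the difference of -0.70 over all libraries had an adjusted p of 0.00082 (limma).

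A ratio of 2 mRNAs within one library does not depend on how the libraries were scaled, so the members with 5′ elements were set against Tfrc. The Fth1 to Tfrc ratio lay between 9.37 and 24.1 (median 15.9) in the 10 total RNA libraries and between 1.67 and 7.03 (median 4.22) in the 10 polysomal libraries. The Ftl1 to Tfrc ratio lay between 12.5 and 27.0 (median 19.6) in total and between 3.31 and 6.56 (median 4.42) in polysomal RNA. For both ratios the fractions did not overlap. The log2 ratio was 1.98 lower on polysomes for Fth1, with a mean of 1.99 ± 0.73 (SD, n = 10) against 3.97 ± 0.42 (SD, n = 10). It was 2.06 lower for Ftl1, with a mean of 2.22 ± 0.37 (SD, n = 10) against 4.28 ± 0.32 (SD, n = 10).

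A two-sided exact permutation test of the fraction labels within each stage and genotype gave p = 0.000139 for both ratios, the smallest that its 14400 arrangements allow. The Slc40a1 to Tfrc ratio differed by -0.57, from -2.47 ± 0.56 (SD, n = 10) in total to -3.04 ± 0.47 (SD, n = 10) in polysomal RNA (exact permutation p = 0.0076), and there the fractions overlapped. These 3 ratios were the only ones computed. Benjamini-Hochberg adjustment over the 3 leaves the largest of these p-values as it is. The members, and this contrast with them, were chosen with earlier results of these data known. The adjustment does not cover that choice, so the p-values describe the separation of the fractions and are not independent evidence for it.

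Among the other mRNAs described here as carrying a known element, polysome association was not uniform. Alas2, the erythroid enzyme of the first step of haem synthesis, fell by 1.22 in polysomal RNA (SE 0.101, adjusted p = 2.56e-07 by limma). Its 5′ element, which spans an exon junction, read tttggttCgtcctCAGTGCagggcaacagg. The summed FPKM of erythroid markers, a list led by Hba-a1 that includes Alas2, was also lower on polysomes. Its means in total and polysomal RNA were 2642 and 2006 in early-symptomatic controls and 2582 and 1744, with overlap, in early-symptomatic SMA brains. At the late stage they were 3848 and 2413 in controls and 3600 and 2034 in SMA brains. Epas1, a hypoxia-inducible transcription factor, fell by 0.49 (adjusted p = 4.81e-05, limma), although the search found no match in its annotated leader. Cdc42bpa rose by 0.15 (adjusted p = 0.024), and Cdc14a was at -0.33 (adjusted p = 0.056).

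Of all iron, haem and iron-sulphur genes listed beside the members, 66 were tested, and 24 were higher and 11 lower on polysomes, beside 25.8% higher and 19.5% lower among all tested genes. Their median difference was 0.10, beside 0.03 over all genes. Skp1a, a subunit of the ligase that removes Ireb2, was higher by 0.52 (adjusted p = 7.35e-07). Hspa9, a mitochondrial chaperone of iron-sulphur assembly, was higher by 0.36 and the haem oxygenase Hmox2 by 0.28. The haem transporter Slc48a1 was lower by 0.96 (adjusted p = 6.47e-09) and the mitochondrial iron importer Slc25a37 by 0.98 (adjusted p = 1.42e-07). The mitochondrial transporter Abcb10 was also called lower, but it was listed at 0 in both early-symptomatic control polysomal libraries, so no fold is given. Over 13067 protein-coding genes the difference between polysomal and total RNA ran slightly downwards with transcript length (Spearman's rho -0.19, across genes, which are not independent replicates), and with length corrected the differences were -2.18 for Fth1 and -2.22 for Ftl1.

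The next question was whether SMA changed the amount of these mRNAs. None of the 8 members passed the adjusted test in either fraction at either stage, where in all 0.164% and 0.649% of tested genes were called in early-symptomatic total and polysomal RNA and 0.111% and 0.0918% in late-symptomatic total and polysomal RNA. At an unadjusted p under 0.05, limma's test counted no member at the early stage, 2 in late-symptomatic total RNA (Slc40a1 and Slc11a2, both lower) and 1 in late-symptomatic polysomal RNA (Slc40a1). The shares of all tested genes at that threshold were 8.25% and 12.5% in early-symptomatic total and polysomal RNA, and 9.54% and 10.7% at the late stage.

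Slc40a1 encodes ferroportin, the only known cellular exporter of iron, and was the member with the largest differences. In early-symptomatic total RNA it was at 8.56 and 5.96 FPKM in controls and at 4.48 and 2.99 FPKM in SMA brains. In early-symptomatic polysomal RNA it was at 6.96 and 3.00 FPKM against 2.89 and 1.39 FPKM. In late-symptomatic total RNA the controls were at 6.50, 5.96 and 6.66 FPKM and the SMA brains at 3.05, 2.84 and 5.72 FPKM. In late-symptomatic polysomal RNA the values were 3.86, 4.51 and 3.57 FPKM against 2.28, 2.02 and 2.60 FPKM. In all 4 comparisons every SMA value was below every control value, narrowly so in early-symptomatic polysomal and late-symptomatic total RNA. Such separation downwards was seen in 22.5% and 26.6% of all tested genes at the early stage (total and polysomal RNA) and in 7.37% and 8.24% at the late stage, and separation upwards in 25.1%, 23.9%, 7.63% and 7.86%.

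The log2 difference of SMA from control for Slc40a1 was -0.95 (SE 0.318, adjusted p = 0.55, limma) in early-symptomatic total RNA and -1.15 (SE 0.613, adjusted p = 0.46) in early-symptomatic polysomal RNA. It was -0.78 (SE 0.285, unadjusted p = 0.040, adjusted p = 0.50 by limma) in late-symptomatic total RNA and -0.77 (SE 0.138, unadjusted p = 0.0023, adjusted p = 0.21 by limma) in late-symptomatic polysomal RNA. Averaged over both stages, a comparison chosen after these values were seen, the difference was -0.86 (SE 0.228, adjusted p = 0.15) in total and -0.96 (SE 0.279, adjusted p = 0.13) in polysomal RNA, where 0.866% and 1.84% of all genes were called and no member was. With single replicates left out, the polysomal average ranged from -1.25, without the second early-symptomatic control replicate, to -0.66. The labels do not say whether the total and polysomal libraries came from the same brains, so the fractions are not counted as independent evidence.

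Markers of endothelial cells, which carry iron across the blood-brain barrier, differed between the genotypes in the same direction. The summed FPKM of 10 endothelial markers, led by Cldn5 and all of them detected, was 136 ± 4.4 (SD, n = 2) in early-symptomatic control and 79.0 ± 8.6 (SD, n = 2) in SMA total RNA. In early-symptomatic polysomal RNA it was 194 ± 33 (SD, n = 2) against 101 ± 16 (SD, n = 2). At the late stage the sums were 115 ± 11 (SD, n = 3) against 78.5 ± 3.2 (SD, n = 3) in total RNA and 142 ± 8.5 (SD, n = 3) against 94.7 ± 5.6 (SD, n = 3) in polysomal RNA. The genotypes did not overlap in any of the 4 groups. Their part in the differences of Slc40a1, and of Slc39a8 described next, was not tested, and in RNA of whole brain a smaller number of cells of one type cannot be told apart from less RNA per cell.

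**Figure D3:**
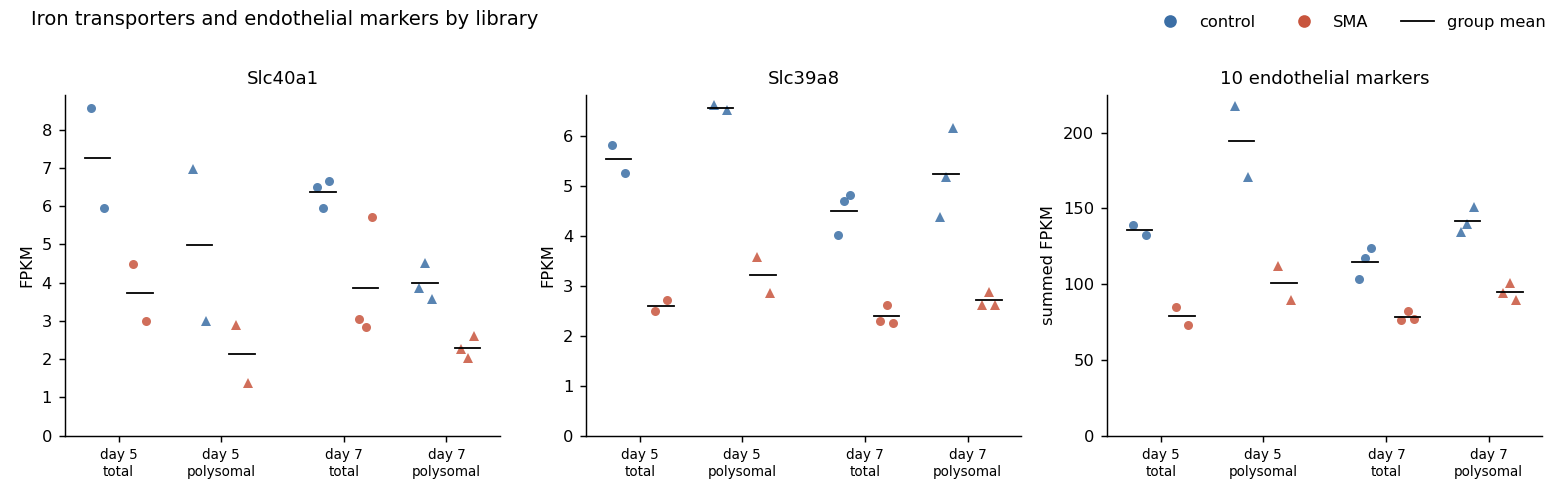
FPKM of Slc40a1 and Slc39a8 and summed FPKM of 10 endothelial markers (vertical axes from 0) in each library by day and fraction; blue is control, red is SMA, circles are total and triangles polysomal RNA, and the black line is the group mean. All 3 quantities are lower in the SMA libraries of each day and fraction.

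A second iron transporter showed a tighter pattern. Slc39a8 encodes a metal importer of the ZIP family that carries zinc, manganese and iron. It was at 5.83 and 5.26 FPKM in early-symptomatic control total RNA against 2.49 and 2.72 FPKM in SMA, and at 6.62 and 6.52 FPKM against 3.59 and 2.86 FPKM in polysomal RNA. At the late stage it was at 4.02, 4.70 and 4.82 FPKM against 2.30, 2.62 and 2.26 FPKM in total RNA and at 4.39, 5.18 and 6.16 FPKM against 2.63, 2.89 and 2.62 FPKM in polysomal RNA. The genotypes were separated by clear gaps in each group.

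Within single stages Slc39a8 did not pass the adjusted test, with log2 differences of -1.06, -1.01, -0.89 and -0.91 in early-symptomatic total, early-symptomatic polysomal, late-symptomatic total and late-symptomatic polysomal RNA (adjusted p = 0.55, 0.36, 0.13 and 0.18, limma). In the average over stages, a comparison added after the values were seen, it fell by 0.97 in total RNA (SE 0.081, adjusted p = 0.0024, limma) and by 0.96 in polysomal RNA (SE 0.109, adjusted p = 0.0058), 1.96-fold and 1.95-fold. There it passed with any single replicate left out (adjusted p at most 0.015 and 0.030). Slc39a8 was itself named for its small p-values among the listed iron genes. These p-values and their stability are therefore those of a gene and a comparison picked from the same data. Cybrd1, a ferric reductase, was at 2.32, 2.78 and 3.30 FPKM in late-symptomatic control and 1.76, 1.81 and 1.91 FPKM in SMA total RNA, a difference of -0.58 (adjusted p = 0.34, limma). Pcbp2, a cytosolic iron chaperone, was at 22.5, 21.2 and 21.5 FPKM in late-symptomatic control and 25.3, 28.7 and 26.2 FPKM in SMA polysomal RNA, a difference of 0.30 (adjusted p = 0.24, limma).

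Of the 66 other iron, haem and iron-sulphur genes tested, limma's adjusted test called none in early-symptomatic total RNA or at the late stage, and in early-symptomatic polysomal RNA it called Abcb10 alone, which was listed at 0 in the controls. At an unadjusted p under 0.05, 1 was higher and 4 were lower in early-symptomatic total RNA, 3 and 6 in early-symptomatic polysomal RNA, 2 and 7 in late-symptomatic total RNA and 6 and 6 in late-symptomatic polysomal RNA. Among all tested genes 8.25%, 12.5%, 9.54% and 10.7% reached that threshold in either direction, in the same order. The iron genes' median differences were -0.11, -0.16, 0.03 and 0.02, beside 0.01, -0.01, 0 and 0 over all genes. These medians were not corrected for transcript length. At the early stage the genotype difference rose with length over protein-coding genes (Spearman's rho 0.56 in total and 0.45 in polysomal RNA).

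The ferritin mRNAs showed small differences between the genotypes, none of which passed the test. In early-symptomatic total RNA the mean log2 difference of SMA from control was -0.26 (95% confidence interval -0.62 to 0.10) for Fth1 and -0.24 (-0.70 to 0.23) for Ftl1, with SMA values below control values for both. Separation downwards was seen there in 22.5% of all tested genes. In late-symptomatic total RNA the mean difference was -0.02 (-0.16 to 0.12) for Fth1 and 0.01 (-0.35 to 0.36) for Ftl1. In polysomal RNA it was 0.16 (-0.56 to 0.88) and -0.16 (-0.42 to 0.11) at the early stage and 0.05 (-0.12 to 0.21) and -0.02 (-0.35 to 0.31) at the late stage. The intervals of Fth1 were narrow at the late stage and wide at the early stage. At the early stage the genotype difference rose with transcript length over protein-coding genes (Spearman's rho 0.56 in total and 0.45 in polysomal RNA, across genes). The annotated transcripts that hold the element have 929 bases for Fth1 and 968 for Ftl1. The longest annotated transcript of Fth1 has 2062 bases, so its correction depends on the transcript taken. With length corrected, the early difference in total RNA was -0.01 for Ftl1, where the genotypes then overlapped, and -0.14 for Fth1. In early polysomal RNA it was 0.02 for Ftl1, opposite in sign to the uncorrected value, and 0.28 for Fth1. The correction moved Fth1 less than Ftl1 in both fractions. No member was called at the early stage after that correction either.

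**Figure D4:**
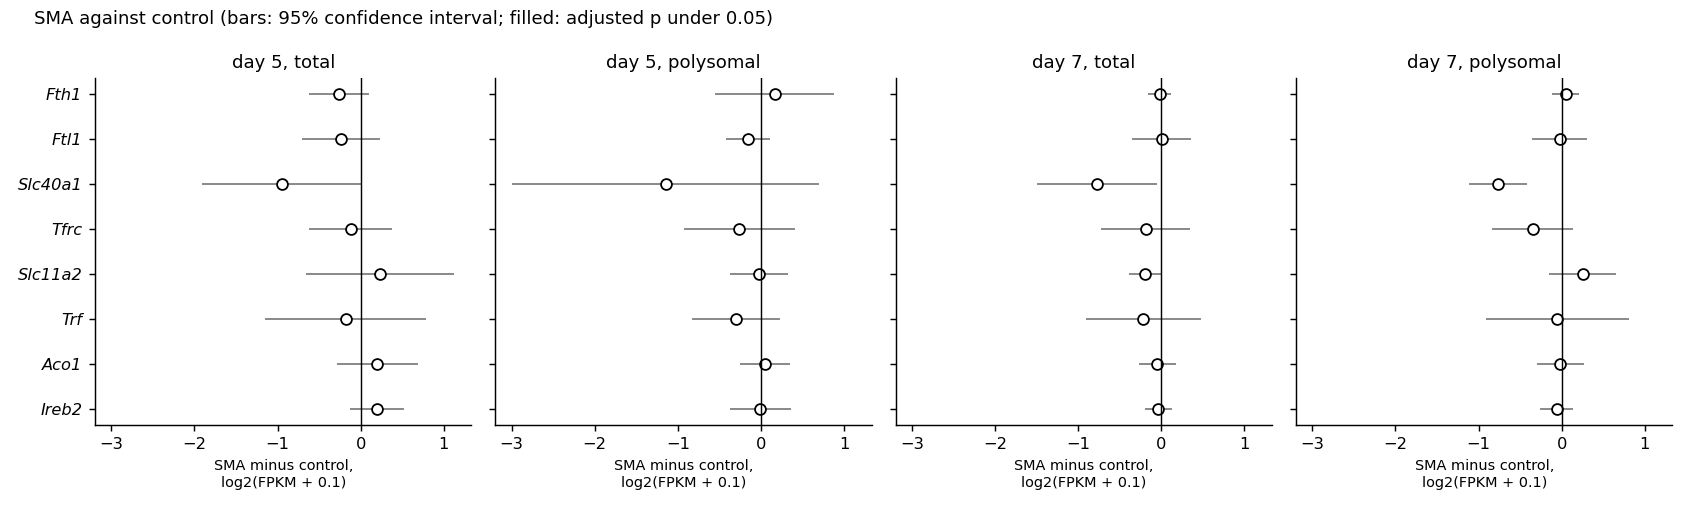
Difference of SMA from control in log2(FPKM + 0.1) (horizontal axis) with its 95% confidence interval for each member (vertical axis) in the 4 combinations of day and fraction; open circles did not pass an adjusted p of 0.05. Slc40a1 has the lowest value in each panel, and no member passed.

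None of the uptake genes and regulators passed the test, and in most groups their genotypes overlapped. Tfrc, which imports iron bound to transferrin, was at 26.9, 38.7 and 24.5 FPKM in late-symptomatic control and 26.7, 29.7 and 21.8 FPKM in SMA total RNA, and its difference was -0.19 (-0.73 to 0.35). In late-symptomatic polysomal RNA Tfrc was at 29.4, 30.7 and 21.04 FPKM against 24.98, 19.6 and 18.6 FPKM, a difference of -0.35 (-0.83 to 0.13). Slc11a2, which moves ferrous iron out of endosomes, was at 20.7, 19.5 and 22.9 FPKM in late-symptomatic control and 18.3, 17.4 and 19.2 FPKM in SMA total RNA. Its SMA values lay below the controls, by 0.20 on average (SE 0.075, unadjusted p = 0.046, adjusted p = 0.51 by limma). Separation downwards was seen there in 7.37% of all tested genes. In late-symptomatic polysomal RNA, however, the Slc11a2 values of 25.1, 22.2 and 31.0 FPKM in SMA overlapped with 24.5, 22.3 and 18.7 FPKM in controls.

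The genotypes of Trf overlapped except in early-symptomatic polysomal RNA, where it was at 14.35 and 17.4 FPKM in controls and 11.55 and 14.2 FPKM in SMA, a difference of -0.30 (adjusted p = 0.49, limma). Separation downwards was seen there in 26.6% of all tested genes, and with length corrected the genotypes overlapped for Trf. In late-symptomatic total RNA it was at 9.07, 17.1 and 14.4 FPKM in controls and 13.7, 10.5 and 9.95 FPKM in SMA brains. The summed FPKM of 10 oligodendrocyte markers was 175, 420.1 and 425 in the same controls and 488, 425 and 261 in the same SMA brains, so the control lowest in Trf was also the lowest in these markers. The part of oligodendrocytes in the Trf values was not tested. The summed choroid plexus markers, led by Ttr, were at 407 ± 17 (SD, n = 3) in late-symptomatic control and 743 ± 90.1 (SD, n = 3) in SMA total RNA while the Trf values of the genotypes overlapped. The 14 erythroid markers in the table (led by Hba-a1, with Tspo2 the lowest) gave sums that overlapped between the genotypes in every group. The 8 astrocyte markers, led by Aldoc, summed to 561 ± 35 (SD, n = 3) in late-symptomatic control and 696 ± 84 (SD, n = 3) in SMA total RNA, without overlap. Aco1 and Ireb2 differed from control by between -0.06 and 0.20 in the 4 comparisons, and neither passed. Their genotypes overlapped except for Ireb2 in early-symptomatic total RNA, which was at 29.2 and 28.9 FPKM in controls and 36.15 and 30.7 FPKM in SMA (difference 0.20, adjusted p = 0.55, limma). Separation upwards was seen there in 25.1% of all tested genes. Ireb2 has the longest annotated transcript of the members (5770 bases), and the early genotype difference rose with length. With length corrected, its log2 values were 4.93315 and 4.88422 in controls against 4.99302 and 4.93344 in SMA, so the genotypes barely separated.

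The change in translation efficiency (TE), the difference of polysomal minus total RNA between SMA and control, was not called for any member at either stage, where 0.617% and 0.0394% of all genes were called early and late. For Fth1 it was 0.42 (95% confidence interval -0.30 to 1.14) at the early and 0.07 (-0.12 to 0.26) at the late stage. For Ftl1 it was 0.08 (-0.32 to 0.47) and -0.03 (-0.48 to 0.43), and for Slc40a1 -0.20 (-2.10 to 1.69) and 0.01 (-0.73 to 0.75). Slc11a2 had the only unadjusted p under 0.05, with 0.45 at the late stage (SE 0.186, unadjusted p = 0.039, adjusted p = 1 by limma), beside 2.32% and 2.07% of all genes at that threshold early and late. With single replicates left out, this Slc11a2 value ranged from 0.28 to 0.54, with unadjusted p-values up to 0.17 (limma). The effect of SMA was not shown to differ between the stages for any member in total RNA, polysomal RNA or TE as far as limma's interaction could show (0 of 8 called, and 0 at an unadjusted p under 0.05), where 0.125%, 0.597% and 0.531% of all genes were called and 10.1%, 13.7% and 2.75% had an unadjusted p under 0.05.

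Between day 5 and day 7 Fth1 was the only member to pass the test. Fth1, the ferroxidase subunit of ferritin, rose in total RNA from 384 and 350 FPKM to 522, 550 and 502 FPKM in controls and from 291 and 323 FPKM to 500.1, 523 and 527 FPKM in SMA brains. In polysomal RNA it rose from 59.5 and 74.1 FPKM to 133, 116 and 135 FPKM in controls and from 62.2 and 88.9 FPKM to 130.5, 134 and 132 FPKM in SMA brains. The days did not overlap in any of these groups, a separation upwards that 27.6%, 28.2%, 23.6% and 28.6% of all tested genes showed in control total, control polysomal, SMA total and SMA polysomal RNA. The rise was 1.43-fold in control total RNA (log2 0.52, adjusted p = 0.022, limma), 1.92-fold in control polysomal RNA (0.94, adjusted p = 0.024), 1.68-fold in SMA total RNA (0.75, adjusted p = 0.037) and 1.77-fold in SMA polysomal RNA (0.83, adjusted p = 0.038). In these 4 comparisons 1 of 8 members was called higher, beside 11.8%, 12.3%, 3.45% and 12.6% of all tested genes, and none was called lower, beside 9.46%, 8.3%, 2.11% and 10%. The calls are near the threshold and are lost in each comparison when certain single replicates are left out, with adjusted p-values up to 0.15, while the direction stays.

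Markers of several cell types moved between the days as well. In control total RNA the summed FPKM of 9 microglia markers, led by C1qa and all detected, lay between 80.3 and 80.5 on day 5 and between 96.9 and 101 on day 7. The 8 neuronal markers, led by Stmn2, went from between 2100 and 2289 to between 3207 and 3458, and the erythroid markers from between 2499 and 2786 to between 3624 and 4235. The neuronal sum was higher on day 7 without overlap in all 4 comparisons, the microglia sum in all but control polysomal RNA (90.7 to 110.5 against 103 to 126) and the erythroid sum in the controls alone. The astrocyte sum was higher without overlap in the same 3 comparisons as the microglia sum, the oligodendrocyte sum overlapped in all 4, and the endothelial and choroid plexus sums were lower without overlap in the controls and overlapped in SMA brains. In control polysomal RNA the neuronal sum of day 5 includes Tubb3 at 0. The part of these cell types in the Fth1 rise was not tested.

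Ftl1, the light subunit, passed the test in none of the 4 comparisons. Its differences between day 7 and day 5 were -0.21 (95% confidence interval -0.51 to 0.10) in control total, -0.04 (-0.43 to 0.35) in control polysomal, 0.03 (-0.44 to 0.51) in SMA total and 0.10 (-0.17 to 0.37) in SMA polysomal RNA. In SMA total RNA Slc11a2 went from 34.2 and 20.7 FPKM to 18.3, 17.4 and 19.2 FPKM, a difference of -0.54 that did not pass (adjusted p = 0.20, limma), and without the second day 5 SMA replicate it was -0.90 and passed (adjusted p = 0.033). The day difference of Aco1 in control total RNA was -0.15 (unadjusted p = 0.026, adjusted p = 0.082, limma), and the other members stayed within wider intervals. The polysome association of Fth1 differed between the days by 0.25 (-0.02 to 0.52), averaged over genotypes, and did not pass (adjusted p = 0.40, limma, a comparison chosen after the values were seen), where 1.04% of all genes were called. That of Trf differed by -0.69 (-1.39 to 0.01), which did not pass (adjusted p = 0.36, limma) but did with the replicate number as a block (adjusted p = 0.032). Taken by the same number, every log2 ratio of polysomal to total Trf on day 7 (-0.365 to 0.155) lay below every one on day 5 (0.274 to 0.729).

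**Figure D5:**
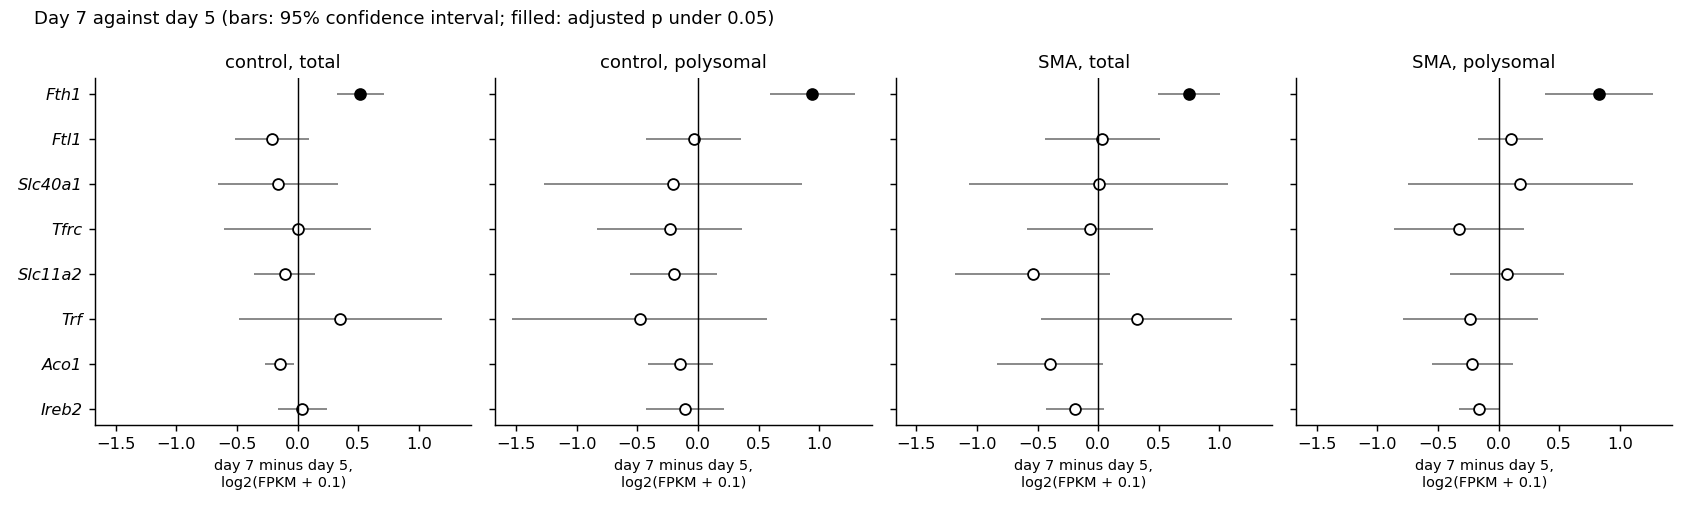
Difference of day 7 from day 5 in log2(FPKM + 0.1) (horizontal axis) with its 95% confidence interval for each member (vertical axis) by genotype and fraction; filled circles passed an adjusted p of 0.05. Fth1 is the single filled point in each panel, between 0.52 and 0.94.

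Some other iron genes changed between the days. Slc22a17, a receptor for the siderophore-binding protein lipocalin, rose by 0.94 and 1.06 in control total and polysomal RNA and by 1.09 and 1.24 in SMA total and polysomal RNA, with adjusted p-values of at most 0.028 by limma. Pcbp3, a member of the iron chaperone family, rose by 0.63, 0.99, 0.80 and 1.07 in the same order. Iscu, the scaffold of iron-sulphur assembly, fell by 0.98 in control polysomal RNA and by 0.27 in SMA polysomal RNA. Fam96a, Fam96b and Ciao1, which pass clusters on to cytosolic proteins, fell in control total RNA by 0.39, 0.28 and 0.73. In SMA total RNA their differences were -0.0037 for Fam96a, 0.29 for Fam96b and -0.73 for Ciao1, and none passed (adjusted p = 0.995, 0.495 and 0.105, limma). The day difference was not shown to depend on genotype for any of the 3 (SMA minus control 0.39, 0.58 and -0.01, adjusted p = 0.486, 0.493 and 0.997 by limma's interaction). For Fam96a this value ranged from 0.28 to 0.50 with single replicates left out and from 0.15 to 0.44 under the other alternatives. Each of the day calls named here was lost when certain single replicates were left out, with adjusted p-values up to 0.138 for Slc22a17 and Pcbp3, 0.11 for Iscu and Fam96a, 0.092 for Fam96b and 0.075 for Ciao1 (limma), while the directions stayed. Of the 66 other iron genes tested, 3 rose and 7 fell in control total RNA, 5 rose (among them Abcb10, listed at 0 on day 5) and 8 fell in control polysomal RNA, 2 rose and none fell in SMA total RNA, and 5 rose and 5 fell in SMA polysomal RNA. Among all tested genes the shares that rose were 11.8%, 12.3%, 3.45% and 12.6% in the same order, and the shares that fell 9.46%, 8.3%, 2.11% and 10%. The iron genes' median differences were -0.10, -0.22, -0.04 and -0.05, beside -0.03, -0.03, -0.04 and -0.01 over all genes. These medians were not corrected for transcript length, to which the day difference was related over protein-coding genes (Spearman's rho 0.12, 0.22, -0.26 and -0.10 in the same order).

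The genes whose log2 values followed each member most closely over the 20 libraries were found among the tested protein-coding genes. For Fth1 they were Stard10, Tpt1 and Rbms2, with Pearson's r of 0.98 to 0.99. Tpt1 encodes a translationally controlled protein and also followed Fth1 within total RNA (r = 0.95) and within polysomal RNA (r = 0.92). For Ftl1 they were Rps2, Cenpb and Rpl41, with r of 0.99, 2 of them ribosomal protein genes. Within total RNA the r of Ftl1 was 0.36 with Rps2, 0.58 with Cenpb and 0.83 with Rpl41, and within polysomal RNA it was 0.44, 0.46 and 0.45. For the other 6 members the highest r was lower, from 0.76 for Trf with Calca, Ugt8a and Nqo2, the second of them an enzyme of myelin lipid synthesis, to 0.95 for Aco1 with Trim2. These are descriptions over libraries that share stage, fraction and genotype.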

How the data were processed

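The values are FPKM per gene that the authors computed with Cufflinks 2.2.1 after aligning 100 bp stranded reads to GRCm38.p4 with TopHat2 2.0.14 and the Gencode M6 annotation, at default settings, and deposited as 1 table for 20 libraries. FPKM are relative to the mapped fragments of each library. The table holds no counts, so the depth behind a value is unknown and no detection floor was computed. Sums of FPKM ran from 571462 to 997685 per library and medians of the tested genes from 10.3 to 11.35.

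Values were tested as log2(FPKM + 0.1) with limma 3.58.1 (R 4.3.3; lmFit, eBayes with a trend) over the 15247 genes that averaged 1 FPKM or more, and p-values were adjusted by Benjamini-Hochberg. Fold changes of low genes are understated on this scale. SMA was compared with control per stage and fraction on those libraries alone, TE changes as interactions per stage, and polysomal against total RNA and differences between stages over all libraries concerned. Exact permutation tests and the element search (GENCODE M21 transcripts) were run in Python 3.11.15. Scripts were tested on simulated data. The labels number the replicates, each from a mouse brain, without saying that they are separate animals, so p-values measure only the spread between these samples.

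Besides the members, per comparison and direction, up to 3 called genes with the smallest p from fixed lists of iron, haem and iron-sulphur genes were named, or up to 2 with an unadjusted p under 0.05 where none was called; of these, a selection is described. The members and lists were chosen with earlier results of these data known, and 3 comparisons (SMA against control averaged over stages in each fraction, and the day difference in TE) were added after values were seen. Alternatives were other pseudocounts, filters, scalings, a model without a trend, 1 model for all libraries, a length correction, the replicate number as a block and leaving out each replicate. Results for some genes of these lists are not reported here.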

Additional observations from a re-analysis of the deposited data

Results flagged for a closer look

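Abcb10, a mitochondrial transporter of the haem list, passed limma's interaction of genotype and stage in polysomal RNA (adjusted p = 4.57e-08) and in TE (adjusted p = 2.81e-13), but both p-values rest on values listed at exactly 0. Its polysomal value was 0 in each early-symptomatic control, beside 12.6 and 11.6 FPKM in total RNA of the same group, whereas early-symptomatic SMA libraries had 13.8 and 12.1 FPKM and the libraries of all other groups lay between 8.90 and 12.6 FPKM. No fold is given against a group listed at 0. Tubb3 was listed at 0 in the same 2 libraries, beside 811 and 736 FPKM in the total RNA. An exact 0 in such a table can be a failed estimate, which was not tested, so no effect of genotype is read from these values. Groups of 2 or 3 libraries were too small to be searched for single outlying samples.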

How the results depend on the processing

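Over all 8 members, comparisons and alternatives, 131 of 2447 log2 differences changed sign. None of these had an unadjusted p under 0.05 as reported or was called under the alternative, and the largest was 0.38 in size. Among them, with length corrected, Ftl1 went from -0.16 to 0.02 between the genotypes in early-symptomatic polysomal RNA and from 0.03 to -0.19 between the days in SMA total RNA. Polysomal against total RNA called Fth1 and Ftl1 under every alternative. Slc40a1 lost its call with the control libraries alone and was not tested under a minimum mean of 5 FPKM. Trf was called as well under the replicate block (0.22, adjusted p = 0.013, limma) and with it and the length correction together. The Slc40a1 to Tfrc ratio with control libraries alone was -0.61 (exact permutation p = 0.05, 120 arrangements). When single replicates were left out, the Slc40a1 ratio ranged from -0.64 to -0.52, that of Fth1 from -2.04 to -1.87 and that of Ftl1 from -2.11 to -2.0. The comparisons of SMA with control by stage and of TE called 0 members throughout.

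The day 7 against day 5 calls were the least stable. The replicate block gave 0 called members in place of 1 in all 4 comparisons; same-numbered brains of different days are different animals, so this block pairs nothing across days. Without a filter 0 were called in control and SMA polysomal RNA, and with quantile normalization 0 in SMA total and polysomal RNA. With all 20 libraries in one model 3 were called in SMA total RNA (Fth1 higher, Slc11a2 and Aco1 lower). Leaving out single replicates gave 0 to 1 in control total, control polysomal and SMA polysomal RNA and 0 to 2 in SMA total RNA, the 2 without the second early-symptomatic SMA replicate. Fth1 lost its call in control total RNA without either early or the first or second late control replicate, in control polysomal RNA without the first early or any late control replicate, in SMA total RNA without the first early or any late SMA replicate, and in SMA polysomal RNA without any one late SMA replicate. The stage difference of the SMA effect in total RNA called 0 to 1 members, the 1 being Slc11a2 without the second early-symptomatic SMA replicate (-0.79, adjusted p = 0.029, limma). The average over stages in polysomal RNA called 0 to 1, the 1 being Slc40a1. The day difference in TE called 1 member under the replicate block, Trf (-0.69, adjusted p = 0.032, limma). The average over stages and the TE day difference were added after the values were seen, as was the length correction with the replicate block.

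The labels give total and polysomal libraries the same replicate numbers without saying that they share a brain. Deviations from group means of same-numbered libraries correlated between -0.039 and 0.109 over all tested genes, and between 0.122 and 0.539 over 9779 protein-coding genes of at least 5 FPKM, where each library matched its own number best. Under the replicate block no other count of called members changed.

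With 2 libraries per group the early comparisons were imprecise. In simulated data for these designs 20% of genes changed by 1 log2 unit were called in early-symptomatic total RNA, against 73% in late-symptomatic total RNA.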
